A study of Rattus norvegicus with 6 samples.

Results

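The genes described here are 44 components of the DNA replication machinery, measured in RUCA-I cells with and without the microRNA miR-203. RUCA-I is an epithelial line derived from a rat endometrial adenocarcinoma, of Lewis strain origin. RNA of untreated cells, grown near confluence in medium with fetal calf serum, was sequenced from 3 independently generated miR-203 knockout (KO) lines, genotype miR-203 -/-, and from 3 batches of wild-type (WT) cells. How the deletion was made is not given in the sources used here. All KO samples are separate lines and all WT samples are batches. The missing microRNA and the separate handling of the lines therefore cannot be told apart. The members were taken by symbol from a fixed list, and for each symbol the longest tested locus of the authors' gene table was used. All 44 listed symbols had a tested row, out of 26459 tested rows. The table gives 1 FPKM value (fragments counted per length of transcript and scaled for library size) for each group, pooled over its samples. The rule used to scale the libraries is not given in the sources used here. Values therefore carry no SD or n, and read depth is unknown. The only test against the spread between samples is the authors' own Cuffdiff test. That spread is between lines in KO and between batches in WT cells. A gene counts as changed where its q-value, the p-value adjusted over all tested rows, was under 0.05.

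Replication begins with licensing in G1 phase, when the origin recognition complex (ORC), Cdc6 and Cdt1 load the ring-shaped Mcm2 to Mcm7 helicase onto DNA. In S phase, Mcm10, Cdc45 and the GINS complex turn the loaded rings into active helicases. DNA polymerase alpha with primase then starts each strand, polymerases epsilon and delta extend it on the sliding clamp Pcna, and Fen1 and Lig1 join the lagging-strand fragments. Many of these genes are transcribed under E2F transcription factors at the G1/S transition, so their combined mRNA level is often read as a sign of how many cells are cycling. In bulk RNA, fewer cells in S phase and less mRNA per cell cannot be told apart.

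The microRNA that the KO lines lack by their labels comes from a hairpin on the plus strand of chromosome 6, where its 3p strand lies at chr6:137020756-137020777 and its 5p strand at chr6:137020718-137020738. Its mature strands are shown to identify what was removed, with the seed (bases 2 to 8 from the 5′ end) in capitals, as given by RefSeq for GRCr8.
rno-miR-203a-3p: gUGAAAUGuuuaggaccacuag
rno-miR-203a-5p: aGUGGUUCuuaacaguucaac
Neither 3′ UTR sequences nor values of miR-203 itself were used here, so the loss of miR-203 rests on the labels and no seed match in a replication gene was looked for.

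No replication gene changed in miR-203 KO cells by the authors' Cuffdiff test. At q under 0.05, 0 of the 44 members were called, where 1.05% of all tested rows were (0.491% higher and 0.556% lower in KO cells) and 1.45% of the rows at the members' level. A count of 0 is near that background. The members' q-values ran from 0.69 to 0.997 in the authors' deposited table. At an unadjusted p under 0.05, 2 members passed, Prim1 and Gins3, or 2 of 44 where 7.28% of the rows at the members' level did. The levels differed little. The KO level was within 10% of the WT level in 32 of the 44, and the ratio of KO to WT lay between 0.8 and 1.25 in 43, with Orc4 just outside at 0.795. The 44 members summed to 1879 FPKM in KO cells and 1978 FPKM in WT cells, a ratio of 0.95.

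The small differences lay mostly on the low side. In 35 of the 44 members the KO value was below the WT value, where 46.3% of all tested rows and 52.8% of the 9104 tested rows with a mean between 7.14 and 203.04 FPKM, the range of the members, were lower. The median log2 ratio, computed as log2((KO + 1)/(WT + 1)), was −0.081 over the members and −0.0099 over the rows at their level. This value describes 2 pooled columns and carries no test. The members' median stayed negative under each scaling tried. Its size, and the share of other rows that were lower, rest on how the 2 columns are scaled. As deposited and without a pseudocount, the rows averaging 1 FPKM or more had a median log2 ratio of 0.0052. Setting the FPKM totals of the groups equal, which were 1039930 in KO and 928381 in WT cells, moved the median of all rows averaging 1 FPKM or more to −0.14. It left 43 of the 44 members and 85.1% of the rows at their level lower in KO, so only Gins1 stayed higher.

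The precision of the comparison can be read from the authors' own calls and p-values. Among the rows at the members' level, the smallest called change in the authors' deposited table was 0.38 on the log2 scale, and no member exceeded it. Dividing each deposited log2 fold by the normal quantile of its p-value gave an implied error between 0.11 and 0.33, with a median of 0.12 over the 44 members. A change of the size seen in most members was therefore not detectable at this spread, which does not show that the levels were equal.

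**Figure D1:**
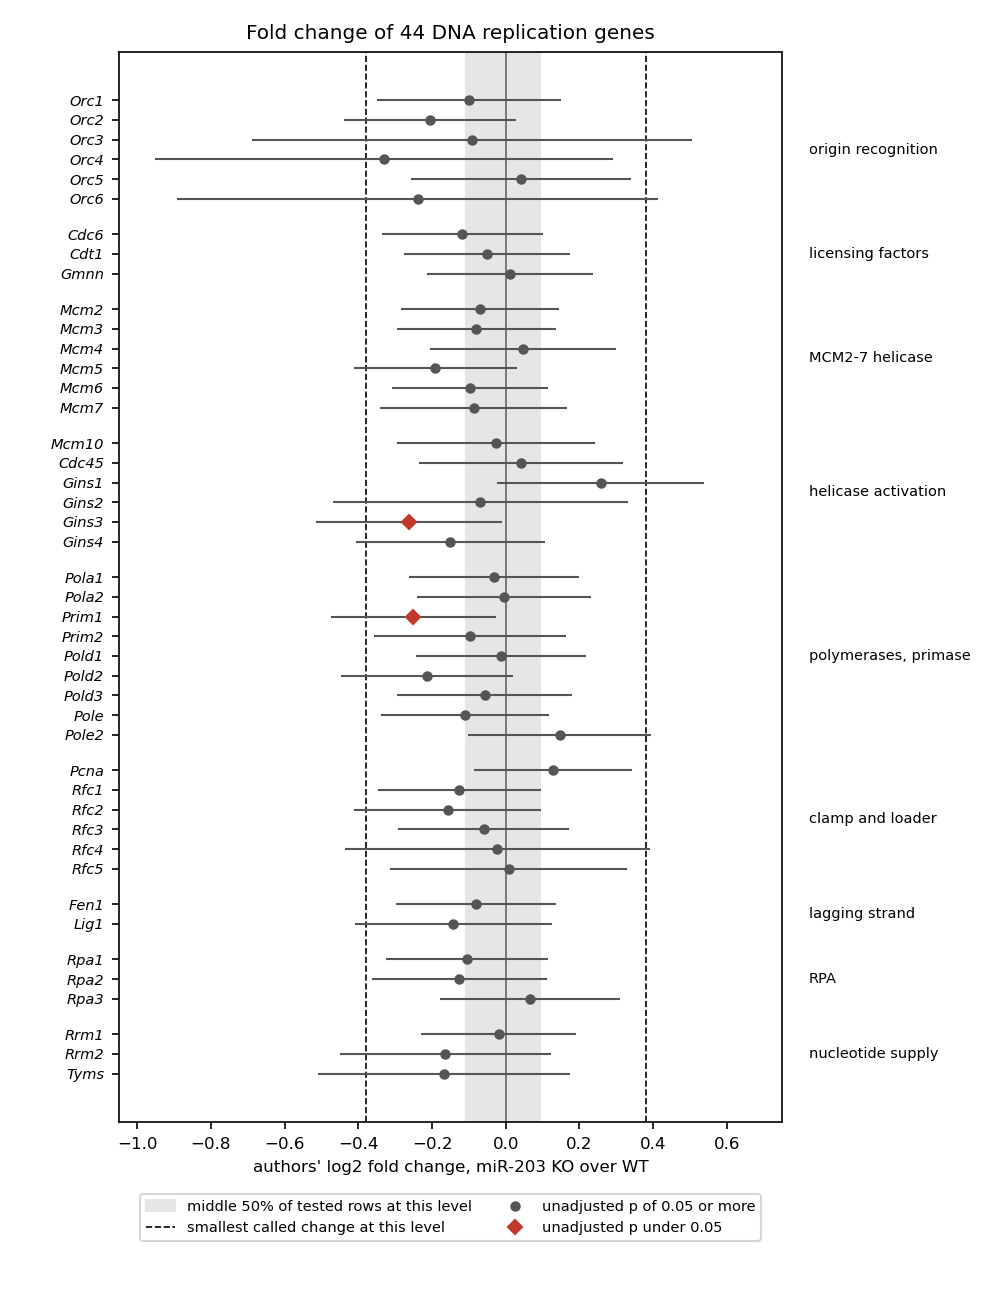
Log2 fold change of KO over WT in the authors' deposited table for each of the 44 members, grouped by role, with the 95% interval implied by the authors' p-value as a horizontal line. Grey marks the middle 50% of the tested rows at the same level and dashed lines the smallest called change there, 0.38. No member lies beyond a dashed line, and diamonds mark Gins3 and Prim1, the 2 members with an unadjusted p under 0.05.

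The ORC genes, whose products mark origins and open the Mcm ring loading step, were among the lower expressed members. Of the 6 subunits, 5 were lower in KO cells and none was called, and they summed to 93.7 FPKM in KO and 106.2 FPKM in WT cells, the lowest ratio of any role at 0.88. Orc4 showed the widest difference of all members, at 13.03 FPKM in KO and 16.4 FPKM in WT cells. Its log2 fold was −0.33 with p = 0.296 in the authors' deposited table, and the implied interval of −0.95 to 0.29 was among the widest of the set. Orc6 stood at 22.2 FPKM in KO and 26.2 FPKM in WT cells, also with a wide interval of −0.89 to 0.41. Orc2 was measured more tightly, at 23.0 FPKM in KO and 26.5 FPKM in WT cells, with p = 0.0852 and q = 0.941 in the authors' deposited table. Orc1, the ATPase subunit that varies over the cell cycle, had 20.2 FPKM in KO and 21.6 FPKM in WT cells. Orc3 (6.91 FPKM in KO and 7.37 FPKM in WT cells) was the lowest member in either group, and Orc5 (8.45 FPKM in KO and 8.21 FPKM in WT cells) the only higher subunit, which with equal FPKM totals was lower too.

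The licensing factors were close to level between the groups as deposited. Cdc6, which recruits the helicase to ORC, stood at 32.4 FPKM in KO and 35.2 FPKM in WT cells. Cdt1, its partner in loading, stood at 43.5 FPKM in KO and 45.1 FPKM in WT cells. Geminin (Gmnn), the protein that holds Cdt1 inactive outside G1, had 68.7 FPKM in KO and 68.2 FPKM in WT cells, a ratio of 1.01. The activator and its inhibitor differed by less than 4% between the groups as deposited. With equal FPKM totals their log2 ratios were −0.21 for Cdt1 and −0.15 for Gmnn. The implied intervals were −0.28 to 0.17 for Cdt1 and −0.21 to 0.24 for Gmnn. They are computed from the p-value and add nothing to it.

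The Mcm2 to Mcm7 helicase genes had the highest summed level of any role, and 5 of the 6 were lower in KO cells without a call. They summed to 541.7 FPKM in KO and 581.02 FPKM in WT cells. The order of the 6 was the same in either group, from Mcm5 at the top through Mcm2, Mcm6, Mcm7 and Mcm3 to Mcm4. Mcm5 had 114.8 FPKM in KO and 131.1 FPKM in WT cells, with a log2 fold of −0.19, p = 0.0902 and q = 0.944 in the authors' deposited table. Mcm2 stood at 112.2 FPKM in KO and 117.7 FPKM in WT cells, and Mcm6 at 107.9 FPKM in KO and 115.4 FPKM in WT cells. None of these was called. Mcm7 had 99.997 FPKM in KO and 106.2 FPKM in WT cells, and Mcm3 had 81.4 FPKM in KO and 86.0 FPKM in WT cells. Mcm4 stood apart from its partners in level, although the proteins assemble in equal number. It had 25.4 FPKM in KO and 24.6 FPKM in WT cells, and the median of the other 5 was 4.24 times its level in KO and 4.69 times its level in WT cells. It was the only member of the ring with a higher KO value, at a ratio of 1.03, and with equal FPKM totals it was lower as well. FPKM depends on the transcript models, so the gap between Mcm4 and the rest is a statement about these values.

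Genes for switching the helicase on differed in both directions, and the GINS subunits held the widest contrast within one complex. Gins3 had 14.8 FPKM in KO and 17.8 FPKM in WT cells, with a log2 fold of −0.26, p = 0.0422 and q = 0.802 in the authors' deposited table. Gins1 had 20.7 FPKM in KO and 17.3 FPKM in WT cells, with a log2 fold of 0.26, p = 0.0718 and q = 0.918 in the authors' deposited table. These 2 subunits of a single complex differed by nearly the same size in opposite directions, and neither passed the test. Gins4 (32.4 FPKM in KO and 35.9 FPKM in WT cells) and Gins2 (12.5 FPKM in KO and 13.1 FPKM in WT cells) were lower, so the 4 subunits summed to 80.4 FPKM in KO and 84.1 FPKM in WT cells. Cdc45, the remaining partner in the active helicase, had 21.3 FPKM in KO and 20.7 FPKM in WT cells, a direction that turned with equal FPKM totals. Mcm10, which helps the helicase start, had 17.8 FPKM in KO and 18.2 FPKM in WT cells.

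Among the polymerase and primase genes 8 of 9 were lower in KO cells and none was called. Prim1, the catalytic primase subunit that lays the RNA primer, had the smallest p of all members. It stood at 74.1 FPKM in KO and 88.2 FPKM in WT cells, a ratio of 0.841, with p = 0.0277 and q = 0.69 in the authors' deposited table. Its partner Prim2 was less abundant, at 15.4 FPKM in KO and 16.5 FPKM in WT cells. The polymerase alpha subunits were closer to level. Pola1, the catalytic subunit, had 31.5 FPKM in KO and 33.2 FPKM in WT cells. For Pola1 the deposited log2 fold (−0.03) and the ratio of the 2 deposited FPKM values (−0.08 on the log2 scale) differ, the only such case among the members at a tolerance of 0.01. Pola2 was nearly equal, at 48.02 FPKM in KO and 48.3 FPKM in WT cells.

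For polymerase delta, which extends the lagging strand, the accessory subunit Pold2 was the lower one, at 44.6 FPKM in KO and 51.7 FPKM in WT cells, with p = 0.072 and q = 0.918 in the authors' deposited table. The catalytic subunit Pold1 stood at 27.8 FPKM in KO and 28.04 FPKM in WT cells, and Pold3 at 17.07 FPKM in KO and 17.8 FPKM in WT cells. For polymerase epsilon, the leading-strand enzyme, the 2 subunits pointed in opposite directions. Pole had 12.8 FPKM in KO and 13.8 FPKM in WT cells, while Pole2 had 13.4 FPKM in KO and 12.1 FPKM in WT cells, a ratio of 1.11 that lay below 1 with equal FPKM totals. The implied intervals of Pole (−0.34 to 0.12) and Pole2 (−0.10 to 0.40) overlap.

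The clamp was higher and its loader lower in KO cells, although with equal FPKM totals all 6 genes were lower. Pcna, the sliding clamp that tethers polymerases to DNA, was the most abundant member in either group, at 212.1 FPKM in KO and 194 FPKM in WT cells. Its log2 fold was 0.13 with p = 0.239 and q = 0.997 in the authors' deposited table. The 5 subunits of replication factor C, which opens the clamp and places it on DNA, summed to 195.3 FPKM in KO and 210 FPKM in WT cells, with 4 of the 5 lower. Rfc2 had 91.2 FPKM in KO and 101.7 FPKM in WT cells, and Rfc3 51.7 FPKM in KO and 53.9 FPKM in WT cells. Rfc1, the large subunit, had 20.1 FPKM in KO and 22.0 FPKM in WT cells. For Rfc4 (12.3 FPKM in KO and 12.5 FPKM in WT cells) and Rfc5 (19.99 FPKM in KO and 19.9 FPKM in WT cells) the groups lay within 2% of each other.

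Among lagging-strand joining, single-strand binding and nucleotide supply genes, 7 of 8 were lower in KO cells and none was called. Fen1, the flap endonuclease, had 56.5 FPKM in KO and 59.8 FPKM in WT cells, and the DNA ligase Lig1 had 19.7 FPKM in KO and 21.7 FPKM in WT cells. Replication protein A coats exposed single strands. Its subunits Rpa1 (33.7 FPKM in KO and 36.3 FPKM in WT cells) and Rpa2 (30.6 FPKM in KO and 33.4 FPKM in WT cells) were lower and Rpa3 (21.4 FPKM in KO and 20.4 FPKM in WT cells) was higher, though lower with equal FPKM totals. All 3 nucleotide supply genes were lower, with none called. Tyms, thymidylate synthase, had 43.96 FPKM in KO and 49.3 FPKM in WT cells. Rrm2, the S-phase subunit of ribonucleotide reductase, had 18.3 FPKM in KO and 20.5 FPKM in WT cells, while the large subunit Rrm1 had 63.5 FPKM in KO and 64.4 FPKM in WT cells. By role, the ratio of summed KO to summed WT level was 0.933 for all 15 licensing genes, 0.92 for polymerases and primase, 1.01 for clamp and loader, and 0.937 for nucleotide supply. Leaving Pcna out gave 0.93 for the loader alone.

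**Figure D2:**
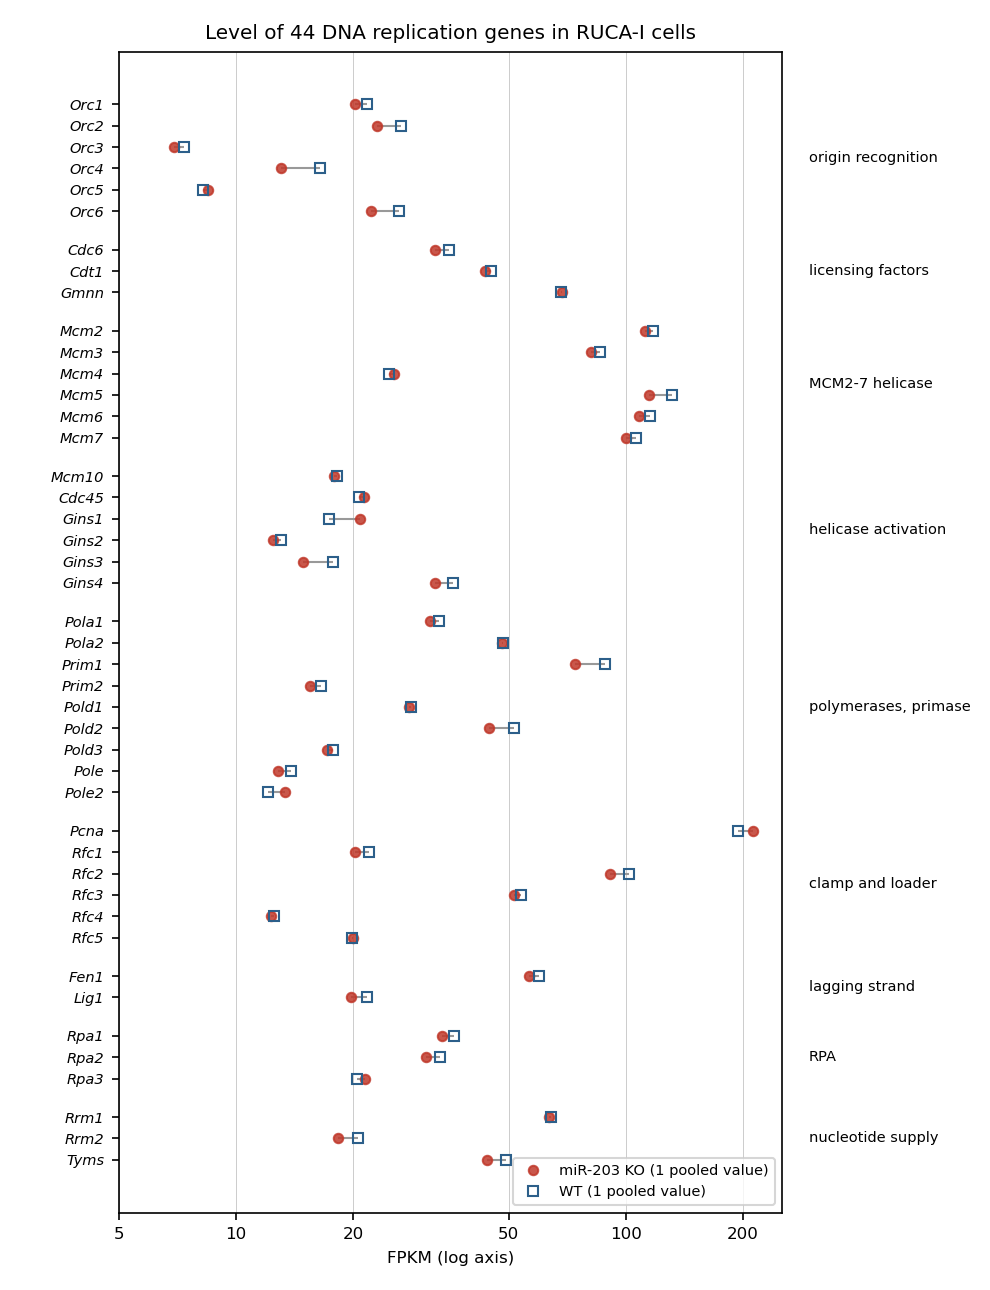
FPKM (log axis) of the 44 members in KO cells (filled circles) and WT cells (open squares), 1 pooled value per group, grouped by role. Circles and squares nearly coincide, with KO to the left of WT in 35 of 44 as deposited (43 with equal FPKM totals); Pcna is the highest and Orc3 the lowest in either group, and Mcm4 lies below the other Mcm ring genes.

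Many members share a promoter feature that was not used to choose them. RefSeq promoters (250 bases before to 50 after the annotated start, GRCr8) were matched by symbol for 37 of the 44. The E2F words TTTCCCGC, TTTCGCGC, TTTGCCGC and TTTGGCGC, searched on both strands, occurred in 19 of these 37 (51.4%), in 2.14% of all 33469 promoters and in 4.69% of the 5669 promoters of symbols at the members' level. Among the Mcm ring genes all 5 with a promoter sequence held a word, as did Cdt1 and Gmnn, but only 1 of 6 clamp and loader genes did (Rfc3). The word CCAAT, read on both strands, occurred in 22 of 37 (59.5%) and in 37.5% of all promoters. A match is a description of letters, not a bound site. Promoters of members named above are shown on the gene's strand, with E2F words and CCAAT in capitals on either strand. Mcm5, Mcm7, Gins3 and Gins1 carry E2F words, and Prim1, with the smallest p, carries none in this window. Their windows on GRCr8 are chr19:13488563-13488862 (plus strand, Mcm5), chr12:22163129-22163428 (minus strand, Mcm7), chr19:9434630-9434929 (minus strand, Gins3), chr3:160184670-160184969 (plus strand, Gins1) and chr7:1031212-1031511 (plus strand, Prim1).
Mcm5: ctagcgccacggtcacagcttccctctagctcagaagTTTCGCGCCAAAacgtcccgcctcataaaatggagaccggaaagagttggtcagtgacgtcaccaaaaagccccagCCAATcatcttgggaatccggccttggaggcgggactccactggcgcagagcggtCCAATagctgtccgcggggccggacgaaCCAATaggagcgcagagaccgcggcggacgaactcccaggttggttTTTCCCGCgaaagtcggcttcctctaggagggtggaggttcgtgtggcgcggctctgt
Mcm7: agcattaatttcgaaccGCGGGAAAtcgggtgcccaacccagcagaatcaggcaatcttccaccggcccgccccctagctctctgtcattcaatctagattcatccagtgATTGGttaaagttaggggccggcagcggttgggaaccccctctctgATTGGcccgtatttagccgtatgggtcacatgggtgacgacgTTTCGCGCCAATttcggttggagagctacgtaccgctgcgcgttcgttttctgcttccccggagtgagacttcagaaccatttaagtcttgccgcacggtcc
Gins3: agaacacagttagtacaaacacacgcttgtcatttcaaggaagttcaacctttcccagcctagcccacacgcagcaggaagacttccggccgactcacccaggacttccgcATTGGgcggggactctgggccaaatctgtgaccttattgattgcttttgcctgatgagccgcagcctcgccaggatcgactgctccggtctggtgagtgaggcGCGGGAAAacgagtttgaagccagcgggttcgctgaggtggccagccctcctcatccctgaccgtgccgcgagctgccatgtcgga
Gins1: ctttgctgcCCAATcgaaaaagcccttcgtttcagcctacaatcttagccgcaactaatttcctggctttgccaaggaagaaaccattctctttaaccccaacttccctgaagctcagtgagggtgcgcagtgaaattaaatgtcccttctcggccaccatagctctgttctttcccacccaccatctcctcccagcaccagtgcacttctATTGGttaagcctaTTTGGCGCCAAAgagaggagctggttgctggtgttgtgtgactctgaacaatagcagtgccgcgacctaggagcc
Prim1: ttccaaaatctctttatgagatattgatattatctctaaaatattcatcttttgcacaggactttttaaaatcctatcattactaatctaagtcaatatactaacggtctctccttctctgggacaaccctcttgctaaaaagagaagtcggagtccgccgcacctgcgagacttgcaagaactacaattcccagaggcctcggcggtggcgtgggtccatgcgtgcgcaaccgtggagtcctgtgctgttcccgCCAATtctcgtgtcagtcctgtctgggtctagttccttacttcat
In Mcm5 and in Gins1, 2 E2F words on opposite strands overlap, and in Mcm7 an E2F word overlaps a CCAAT. The start of the Mcm5 gene is preceded directly by a further word, from −8 to −1, and in Gins1 the pair spans −25 to −14.

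Members with and without an E2F word had similar log ratios, without a test. The median log2 ratio was −0.078 over the 19 members with a word, −0.072 over the 18 with a promoter sequence and no word, and −0.11 over the 7 for which none was used. Of the 19 with a word, 15 were lower, and of the 18 without, 15 were lower. Gins3 and Gins1, the widest pair, both carry one.

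**Figure D3:**
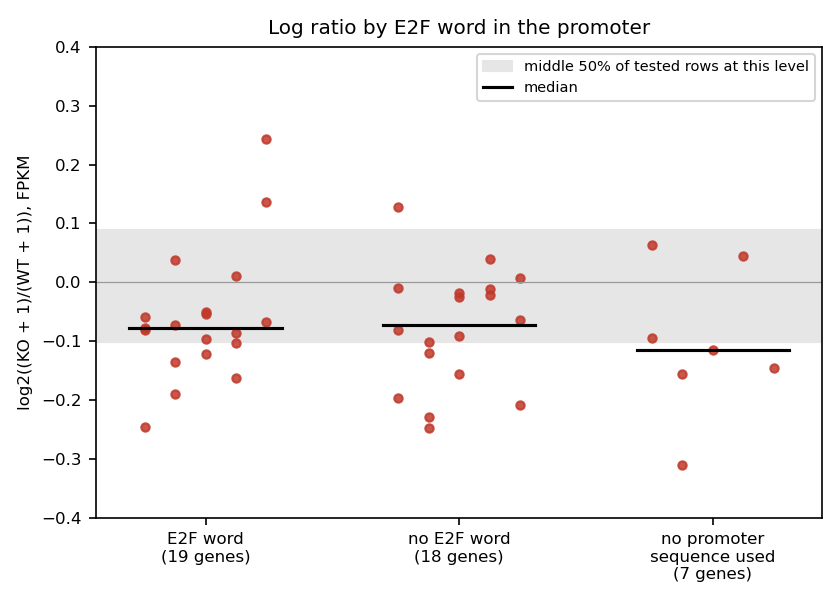
Log2((KO + 1)/(WT + 1)) of each member by whether its promoter holds an E2F word; the bar is the median and the grey band the middle 50% of tested rows at the members' level. The medians of the 19 genes with a word (−0.078) and the 18 without (−0.072) lie close together, and the lowest point of either column is near −0.25. With equal FPKM totals all points but Gins1 lie below 0.

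Of the 44 members, 4 lay in 2 chromosome parts whose rows were shifted relative to the rest of the genome. As deposited, members elsewhere ranged in log2 ratio from −0.31 for Orc4, which had a wide implied interval, to 0.14 for Pole2. The 44 genes lie on 16 chromosomes of rn6. Gins1 (chromosome 3, 146695246 to 146716919) and Pcna (chromosome 3, 124880145 to 124884829) are the only members beyond 120 Mb on chromosome 3. There the 364 tested rows averaging 5 FPKM or more had a median log2 ratio of 0.14 as deposited, with 82.7% of them higher in KO cells, and of −0.012 with equal FPKM totals, with 47.5% higher. Gins3 (chromosome 19, 9835111 to 9843674) and Mcm5 (chromosome 19, 14523538 to 14561333) are the only members in the first 20 Mb of chromosome 19. There the 70 tested rows at that level had a median of −0.13 as deposited, with 77.1% lower, and of −0.28 with equal FPKM totals, with 90% lower. The log2 ratios of the members were 0.24 for Gins1 and 0.13 for Pcna, against −0.25 for Gins3 and −0.19 for Mcm5. With equal FPKM totals they were 0.089 for Gins1 and −0.035 for Pcna, against −0.40 for Gins3 and −0.35 for Mcm5. Elsewhere the median over 10860 rows was −0.0093 as deposited, with 52.7% lower, and −0.16 with equal FPKM totals, with 84.3% lower. Rows of distal chromosome 3 were thus above, and rows of proximal chromosome 19 below, the rest by their medians under either scaling, without a test. As deposited, the remaining 40 members had a median of −0.081, with 33 of the 40 lower. The shift of these chromosome parts was known from earlier results of these data, so it is not independent of the choice to look there, and its part in the values of the 4 members was not tested.

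**Figure D4:**
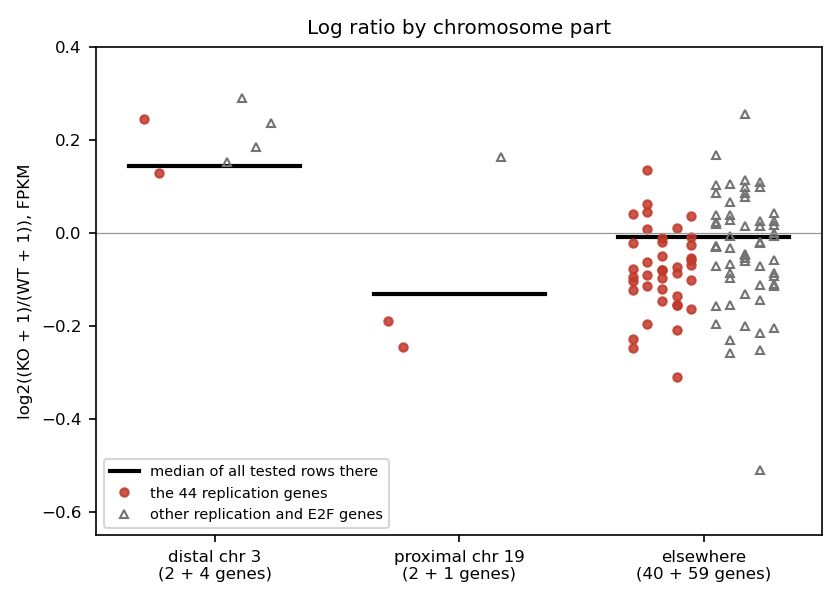
Log2((KO + 1)/(WT + 1)) of the 44 members (circles) and of other replication and E2F genes (triangles) by chromosome part on rn6. Bars are the medians of all tested rows there averaging 5 FPKM or more. The points have no such minimum, and those on distal chromosome 3 include Top1, at 1.01 FPKM in KO and 0.773 FPKM in WT cells. On distal chromosome 3 all 6 points lie above 0 as deposited and the bar is at 0.14, while with equal FPKM totals Pcna is at −0.035 and the bar at −0.012; on proximal chromosome 19 Gins3 and Mcm5 lie below 0 with the bar at −0.13 (−0.28 with equal FPKM totals), and 1 triangle, Rbl2, lies above.

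Other genes of the pathway were taken from 8 lists of 69 further genes, of which 64 had a tested row. None of the 64 was called, where 1.05% of all tested rows were, so a count of 0 is near the background. As deposited, 35 of the 64 (54.7%) were lower and 29 higher in KO cells, with a median log2 ratio of −0.02; 46.3% of all tested rows and 52.8% of the rows at the members' level were lower. With equal FPKM totals only 7 of the 64 were higher. Dbf4, Dna2, Mcmdc2, E2f1 and E2f4 had no row matched by symbol and were not analysed here. No difference between the lists was tested. Kinases, cyclins and adaptors that fire origins were higher in 8 of 10, but in none with equal FPKM totals. The smallest p-values were those of Ccne1 (22.6 FPKM in KO and 21.4 FPKM in WT cells), Mtbp (7.13 FPKM in KO and 6.58 FPKM in WT cells) and Cdk2 (38.1 FPKM in KO and 36.4 FPKM in WT cells). Chromatin assembly genes were lower in 7 of 8, and in all 8 with equal FPKM totals, such as the histone chaperone subunits Rbbp4 (57.98 FPKM in KO and 66.9 FPKM in WT cells), Supt16h (50.9 FPKM in KO and 55.1 FPKM in WT cells) and Chaf1b (14.3 FPKM in KO and 15.9 FPKM in WT cells). The 7 include Ssrp1, whose longest locus, 1 of 2 rows, had only 0.981 FPKM in KO and 1.27 FPKM in WT cells.

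At the fork, 5 of 8 genes that protect it or belong to complexes related to the clamp loader were lower, and all 8 with equal FPKM totals. The 5 include Tipin, whose longest locus, 1 of 2 rows, had only 1.27 FPKM in KO and 1.32 FPKM in WT cells. Wdhd1, which links the helicase to polymerase alpha, had 17.97 FPKM in KO and 21.6 FPKM in WT cells, with p = 0.02855 and q = 0.701 in the authors' deposited table. Timeless (18.3 FPKM in KO and 20.5 FPKM in WT cells) and Dscc1 (16.6 FPKM in KO and 17.7 FPKM in WT cells) came next by p. Among further nucleotide enzymes, 5 of 12 were higher, but only Samhd1 was with equal FPKM totals. Samhd1, which breaks down deoxynucleotides, had the smallest p of all 64, at 28.3 FPKM in KO and 22.9 FPKM in WT cells, with p = 0.00695 and q = 0.319 in the authors' deposited table. Samhd1 lies on distal chromosome 3. Dtymk, thymidylate kinase, had 61.0 FPKM in KO and 71.7 FPKM in WT cells, and Cad, which starts pyrimidine synthesis, 56.3 FPKM in KO and 65.5 FPKM in WT cells. Each had an unadjusted p under 0.05 and no call.

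The E2F factors and the pocket proteins that restrain them were higher in 7 of 11, and in 4 of 11 with equal FPKM totals. Rbl1, the pocket protein p107, had 38.1 FPKM in KO and 32.2 FPKM in WT cells, with p = 0.0419 and q = 0.799 in the authors' deposited table, and it also lies on distal chromosome 3. E2f8, a repressor of the family, had 30.1 FPKM in KO and 26.7 FPKM in WT cells, and E2f5 7.30 FPKM in KO and 5.95 FPKM in WT cells. Of the remaining lists, relatives of the Mcm ring were lower in 2 of 3 under either scaling. The higher gene, Mcm8, lies on distal chromosome 3 and had 8.21 FPKM in KO and 7.28 FPKM in WT cells. Mcmbp had 22.1 FPKM in KO and 23.2 FPKM in WT cells, and Mcm9 2.80 FPKM in KO and 2.99 FPKM in WT cells. Further polymerase and primer removal genes were lower in 4 of 7, and in all 7 with equal FPKM totals, with Rnaseh1 at 16.4 FPKM in KO and 19.8 FPKM in WT cells. Rnaseh2a had 71.5 FPKM in KO and 66.0 FPKM in WT cells, and Pold4 4.51 FPKM in KO and 4.14 FPKM in WT cells. Topoisomerase and maintenance methylation genes were lower in 4 of 5 under either scaling, with Dnmt1 at 55.1 FPKM in KO and 59.5 FPKM in WT cells. The higher one was Top1, also on distal chromosome 3, whose longest locus, 1 of 8 rows, had only 1.01 FPKM in KO and 0.773 FPKM in WT cells. Top2a had 19.5 FPKM in KO and 21.0 FPKM in WT cells, and Top2b 146.5 FPKM in KO and 160.4 FPKM in WT cells.

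Mki67, a marker of cycling cells, stood at 51.6 FPKM in KO and 49.9 FPKM in WT cells and was not called (q = 0.997, from the authors' deposited table). With equal FPKM totals Mki67 was lower in KO cells. Many histone genes with a Hist symbol are also expressed in S phase. Among 18 such rows averaging 1 FPKM or more, the authors' test called 5, each higher in KO cells, where 0.491% of all tested rows were called higher. The 18 summed to 127.7 FPKM in KO and 83.2 FPKM in WT cells, and their median log2 ratio was 1.14 as deposited and 1.07 with equal FPKM totals. Many of these genes are near-identical copies, so single copies are uncertain, and the difference between the 2 sets was not tested. As a check of the labelled tissue, 5 of 6 epithelial markers had a tested row, at 121 to 419 FPKM in KO and 103 to 501 FPKM in WT cells. Of 15 markers of leukocytes, fibroblasts, endothelium and muscle, 3 had a tested row, none above 2.80 FPKM in KO or 1.43 FPKM in WT cells, and the other 12 had no tested row under their symbol.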

How the data were processed

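RNA of 3 KO and 3 WT samples was sequenced from strand-marked libraries, per the labels' protocols. The submitters' processing notes list build rn6 with Cuffdiff 2.2.1.3, Cufflinks 2.2.1 and TopHat under version 0.9. Which annotation and settings these ran with is not given in the sources used here. Per the file headers, the authors deposited 1 FPKM per row and group, their log2 fold (KO over WT), a test statistic (a score), a p-value and a q-value. FPKM keeps no read depth. Of 26751 rows, 26459 were tested by the authors.

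The members, lists and chromosome parts were chosen with earlier results of these data known. The longest tested locus was taken per symbol, and at equal length the row with the highest mean. Log ratios used a pseudocount of 1, which understates changes of low genes. With no values per sample, limma could not be run and only the authors' Cuffdiff test is given. The implied error is the deposited log2 fold over the normal quantile of p; it was computed after the values were seen, because the deposited statistic could not serve as fold over error (for statistics of 1 to 1.5, the median deposited p was 0.0551 and the normal p 0.237). Intervals cover 95% on that assumption. The deposited q equalled Benjamini-Hochberg values recomputed over tested rows. All members are named; of the other lists, the 3 smallest p per list. Mki67, Hist rows and shown promoters were chosen after their values were seen. Scripts were tested on simulated data. Python 3.11.15, pandas 2.3.3, NumPy 2.4.6, SciPy 1.17.1 and matplotlib 3.10.9 were used.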

Additional observations from a re-analysis of the deposited data

How the results depend on the processing

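The count of members called, 0 at the authors' q under 0.05, became 2 at an unadjusted p under 0.05. It was 0 with q recomputed over rows averaging 1 FPKM or more, or 5 FPKM or more, where the smallest member q was 0.587 and 0.556, both for Prim1. Over 12 other settings the members' median log2 ratio ran from −0.24 to −0.079 and the number lower in KO from 33 to 43. The count of 33 was out of 42 or 40, where members of the chromosome parts were left out. With all 44 members the lowest count was 34, for the sum of all rows of a symbol. The median moved by over 1.5 times only with equal FPKM totals (TPM), to −0.24, a shift of 0.16 on the log2 scale for every row before the pseudocount. The median stayed negative with the row with the highest mean, the sum of all rows of a symbol and the authors' fold column. Leaving out the members on distal chromosome 3 also kept it negative, as did leaving out those on proximal chromosome 19 or on both. The last 2 settings were added after seeing the data, like the values of the chromosome parts and histone rows with equal FPKM totals. Other settings could hardly have changed the direction. A pseudocount of 0.1, or none at all, cannot change which group is lower. The 2 minimum levels dropped no member, as none averaged under 7.14 FPKM. Setting the median of all rows to 0 shifted each row by only 0.0052 on the log2 scale before the pseudocount. No paired analysis was possible because each group has 1 pooled value, and no replicate could be left out in turn. Depth is unknown, so no counting error can be given.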

Other observations

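Beyond the longest locus, 13 of the 44 symbols had 20 further tested rows, with 12 higher and 8 lower in KO cells and none called. Only 3 of them exceeded 10 FPKM in either group. The second row of Tyms at the same locus had 20.5 FPKM in KO and 23.7 FPKM in WT cells. That of Fen1 had 12.8 FPKM in KO and 14.6 FPKM in WT cells, and a further row of Cdc45 had 12.9 FPKM in KO and 10.1 FPKM in WT cells. A short row beside Prim1 (rn6 chromosome 7, 2451602 to 2452513) had 0.515 FPKM in KO and 0.989 FPKM in WT cells, with p = 0.0286 and q = 0.701 in the authors' deposited table. It points the same way as the main Prim1 row (2435550 to 2451496), lies just past its end, and stands at a level where FPKM is imprecise.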
